A study of Mus musculus with 9 samples.

Results

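Zinc finger genes of 2 mouse chromosomes, with the genes that lie beside them, were read in uteri of mice that lack Mig-6 and Erbb2 in Pgr-expressing cells. The 9 genes were Rsl1, Zfp429, Zfp874a, 4833420G17Rik, Tmem267 and D13Ertd608e on chromosome 13 and Zfp994, Zfp945 and Zfp40 on chromosome 17. They were chosen by name because their intensities had been seen to differ in this double knockout both from control and from Mig-6 d/d. Both comparisons are therefore given here as a description of the chosen genes. Each gene was read at every probe set, the unit of short probes that measures a transcript, whose annotation names no further gene. This gave 18 probe sets of the 45037 on the array, and 9 genes of 18193.

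RNA of whole uteri on gestation day 3.5 was measured on 9 Affymetrix arrays, 3 each of double knockout (labelled Mig-6 d/d Erbb2 d/d), Mig-6 d/d and control mice. In both knockout groups a cre recombinase under the Pgr promoter deleted floxed Mig-6, and in the double knockout floxed Erbb2 as well, so cells without Pgr keep the genes. Control mice carried floxed Mig-6, or floxed Mig-6 and floxed Erbb2, and which array held which of these is not given. All were females of a C57BL/6 and 129P2/OlaHsd mix, mated to C57BL/6 males, and the share of each strain per group is not given. The labels give an age of 2 weeks, where the study's methods give adult mice. The RNA of several mice was pooled for each genotype, and separate pools per array are not stated, so p-values may measure technical spread only.

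Mig-6, named Errfi1 in the annotation, is a feedback inhibitor of receptors of the EGF receptor family, to which Erbb2 belongs, and progesterone induces it in the uterus. The zinc finger genes named here belong to a large family of DNA-binding proteins, most of which carry a KRAB domain. Through that domain they recruit Trim28 and, with it, enzymes that lay down repressive chromatin marks over transposable elements and genes. Such genes stand in clusters that grew by duplication, and the clusters differ between species and strains of mice. Rsl1, the regulator of sex-limitation, is known in mouse liver for holding down genes of the male liver in females. RefSeq lists Rsl2 as another name of Zfp429, and lists Rsl1 and Zfp874a as members of the same set of candidate genes.

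In a RefSeq gene table the 9 genes fell into 3 stretches, each taken to reach 1 Mb beyond the genes. The first stretch of chromosome 13 held 85 genes, 27 of them with zinc finger names, and Rsl1, Zfp429 and Zfp874a stood within 14 consecutive genes of it. The second stretch of chromosome 13 held 52 genes and just 1 with a zinc finger name, and 4833420G17Rik, Tmem267 and D13Ertd608e stood within 14 consecutive genes. The stretch of chromosome 17 held 136 genes, 23 of them with zinc finger names, and Zfp994, Zfp945 and Zfp40 stood within 29. The name zinc finger cluster thus held for 6 of the 9 genes. Errfi1 on chromosome 4, Pgr on chromosome 9 and Erbb2 on chromosome 11 lie on neither chromosome.

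The promoters of the 3 genes of the first stretch are shown because these genes shift together and their starts could be compared letter by letter. Each runs from 250 bases before to 50 bases after the start site, 5′ to 3′ on the gene's strand, and is taken from RefSeq on GRCm38.p6. They lie at chr13:67172932-67173231 on the plus strand for Rsl1, at chr13:67399718-67400017 on the minus strand for Zfp429 and at chr13:67451575-67451874 on the minus strand for Zfp874a. Capitals mark GGGCGG, the core letters of a GC box, searched on both strands.
Rsl1: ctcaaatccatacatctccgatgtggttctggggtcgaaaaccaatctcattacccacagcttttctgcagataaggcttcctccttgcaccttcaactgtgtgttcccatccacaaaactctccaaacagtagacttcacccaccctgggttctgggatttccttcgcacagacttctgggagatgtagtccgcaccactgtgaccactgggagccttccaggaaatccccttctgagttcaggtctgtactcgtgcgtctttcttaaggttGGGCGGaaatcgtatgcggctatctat
Zfp429: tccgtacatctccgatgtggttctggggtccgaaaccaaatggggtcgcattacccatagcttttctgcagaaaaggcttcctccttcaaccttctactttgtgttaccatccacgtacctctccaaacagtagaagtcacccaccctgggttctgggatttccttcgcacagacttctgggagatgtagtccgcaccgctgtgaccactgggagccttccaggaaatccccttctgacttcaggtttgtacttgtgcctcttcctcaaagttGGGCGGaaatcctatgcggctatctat
Zfp874a: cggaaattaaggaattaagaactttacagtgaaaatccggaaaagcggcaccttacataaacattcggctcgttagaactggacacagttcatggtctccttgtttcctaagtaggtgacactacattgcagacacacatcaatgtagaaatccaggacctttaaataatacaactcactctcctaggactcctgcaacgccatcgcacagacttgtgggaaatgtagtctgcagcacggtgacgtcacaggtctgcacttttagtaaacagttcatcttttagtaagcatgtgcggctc
The promoters of Rsl1 and Zfp429 were near copies of each other, with 269 identical bases in 306 aligned columns (87.91%). Among 32850 other promoters aligned to that of Rsl1, Zfp429 scored highest with 235, Zfp456 came next with 231, and the following score was 49.5. Zfp874a ranked 14 of these with a score of 18 and shared 52.29% of its aligned columns with Rsl1. Of the genes outside the first stretch, 4833420G17Rik shared 52.39%, Tmem267 52.11%, Zfp994 48.63% and Zfp945 47.28%. By score the promoters of these genes ranked far behind Zfp874a, the best at 1445 with a score of 1. GGGCGG began 24 bases after the start site in both Rsl1 and Zfp429 and was not in the window of Zfp874a. It occurred in 35.66% of the 32851 promoters of the table. TATAAA, searched on both strands, was in none of the windows of the 7 genes with an entry and in 13.62% of all promoters. Promoter entries of Zfp40 and D13Ertd608e were not used here.

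Intensities were deposited on a linear scale, and the array medians lay between 7.87 and 8.24, so several of these probe sets are dim. Log2 fold changes are differences between mean log2 intensities, given with their standard errors (SE) from a linear model of all 9 arrays in limma. A probe set was called when it changed by more than 1.5-fold and its p, adjusted over the 45037 probe sets after Benjamini and Hochberg, was under 0.05. Of the targeted genes, Erbb2 read 18.3, 9.88 and 18.5 in double knockout uteri, 46.6, 39.5 and 44.5 in Mig-6 d/d uteri and 29.4, 36.7 and 45.7 in control uteri, so the double knockout lay below all others. Errfi1 at probe set 1416129_at read 76.1, 29.8 and 40.3 in double knockout uteri, 15.1, 15.96 and 255 in Mig-6 d/d uteri and 454, 564 and 286 in control uteri. The library that is labelled Mig-6 d/d replicate 3 thus stood far above its group and close to the lowest control array for the gene it should lack. In limma Erbb2 was called against Mig-6 d/d (adjusted p = 0.00649) but not against control (adjusted p = 0.0649). Errfi1 was called in no comparison at 1416129_at or at its other probe set, 1419816_s_at. Against control its adjusted p in limma was 0.303 and 0.273 for the double knockout and 0.0719 and 0.0753 for Mig-6 d/d. Whether these probe sets read the deleted exons is not given. Without that library, 13 of the 18 probe sets of the 9 genes were still called against Mig-6 d/d, and the largest, Tmem267, differed by 3.08 in place of 3.16 on the log2 scale.

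Of the 18 probe sets, 11 were called higher and 1 lower in double knockout uteri than in control uteri, and each of the 9 genes had a call. Over all probe sets 0.357% were called in this comparison. Against Mig-6 d/d uteri 12 were called higher and 1 lower, beside 5.13% of all probe sets. Calls in the same direction against both were made for 12 of the 18, beside 0.286% of all probe sets. These counts follow from the choice of the genes and are no test of them. The 3 arrays of the double knockout did not overlap the 3 control arrays at any of the 18 probe sets, 15 higher and 3 lower, where 11.7% of all probe sets had arrays that did not overlap (5.9% higher and 5.82% lower). Against the 3 Mig-6 d/d arrays 15 were higher and 3 lower as well, where the share of all probe sets was 26.9% (14.8% higher and 12% lower). The median log2 fold change of the 18 was 1.11 against control and 1.04 against Mig-6 d/d, and over all probe sets it was 0.00 and 0.02.

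**Figure D1:**
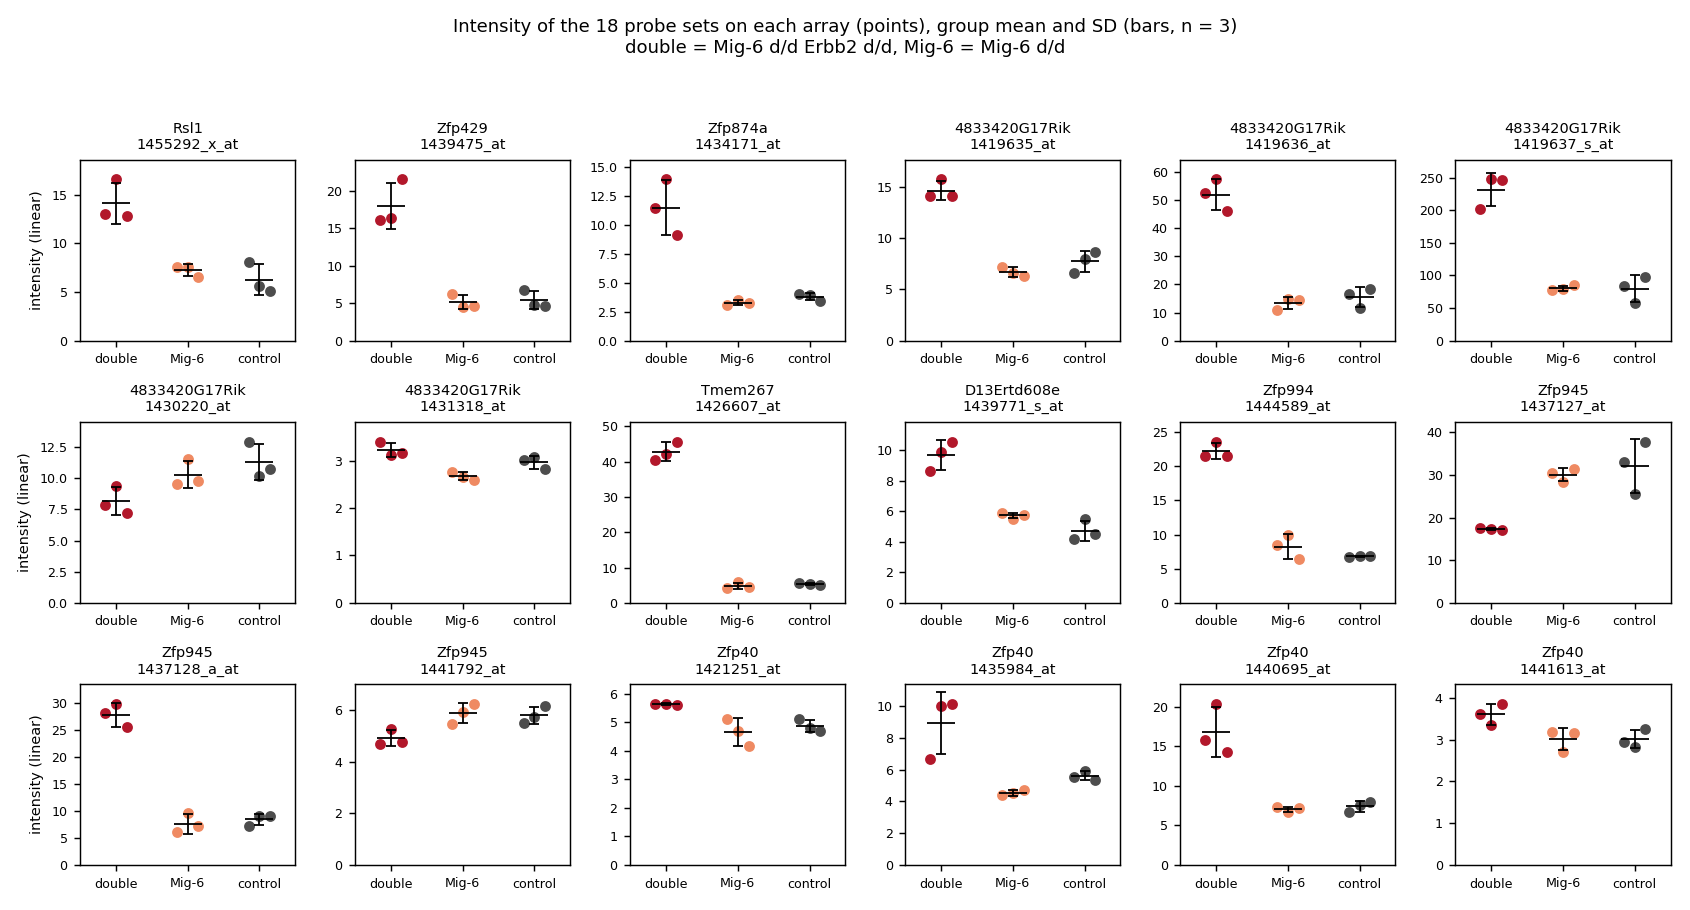
Intensity on a linear axis that starts at 0 for each of the 18 probe sets, with points for single arrays and bars for the mean and SD of 3 arrays. The double knockout stands left, Mig-6 d/d in the middle and control right, and the points of the double knockout lie apart from both other groups in all 18 panels, above them in 15 and below them in 3.

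Tmem267, which encodes a transmembrane protein, had the largest log2 fold change of the 9 genes as measured. Its probe set 1426607_at read 40.4, 42.2 and 45.7 in double knockout uteri, 4.32, 5.88 and 4.34 in Mig-6 d/d uteri and 5.48, 5.42 and 4.96 in control uteri. All 3 double knockout arrays stood far above the other 6, which lay below the array medians. The log2 fold change was 3.02 ± 0.13 (SE) against control and 3.16 ± 0.13 against Mig-6 d/d. The 95% interval against control ran from 2.73 to 3.30. Whether such dim arrays stood above background was not judged for any of the 9 genes, so these are differences between intensities, and the order of the genes by them is no order of their transcripts' changes.

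4833420G17Rik, a protein-coding gene known by its clone name, stands next to Tmem267 with a long noncoding RNA, 3110070M22Rik, between them. It had 5 probe sets, and 3 of them were called higher in both comparisons. Of these, 1419637_s_at read 202, 247 and 246 in double knockout uteri, 77.9, 78.7 and 84.7 in Mig-6 d/d uteri and 84.4, 57.2 and 98.3 in control uteri. The double knockout arrays were more than 2-fold above every other array at this probe set. At 1419636_at the intensities were 52.4, 57.4 and 46.2 in double knockout uteri, 10.99, 14.98 and 14.4 in Mig-6 d/d uteri and 16.5, 11.7 and 18.5 in control uteri. The log2 fold changes against control were 1.76 ± 0.18 at 1419636_at, 1.56 ± 0.18 at 1419637_s_at and 0.92 ± 0.12 at 1419635_at. Those against Mig-6 d/d were 1.96, 1.52 and 1.13. The other probe sets of the gene did not share this shift. At 1430220_at the double knockout read 7.87, 9.41 and 7.2, against 9.54, 11.5 and 9.76 in Mig-6 d/d and 12.95, 10.2 and 10.7 in control uteri, so its arrays lay below both other groups. The log2 fold change there was -0.47 ± 0.14 against control and -0.34 ± 0.14 against Mig-6 d/d, opposite to the called probe sets, and was called in neither. At 1431318_at all 9 arrays lay between 2.59 and 3.41, close to the floor of the arrays, where the lowest intensity was 2.11.

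D13Ertd608e, which RefSeq lists as a noncoding transcript, was the last of the 3 in gene order. Its probe set 1439771_s_at read 8.66, 9.91 and 10.6 in double knockout uteri, 5.89, 5.51 and 5.78 in Mig-6 d/d uteri and 4.17, 5.47 and 4.48 in control uteri. The groups stood in 3 steps without overlap, with the double knockout on top. The log2 fold change was 1.05 ± 0.12 against control and 0.76 ± 0.12 against Mig-6 d/d. The ending _s_at marks probes that match more than 1 transcript, and 1419637_s_at of 4833420G17Rik carries it too.

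Rsl1 was read by 1455292_x_at, whose ending _x_at marks probes that can match other genes, so its signal cannot be told apart from that of near copies of the gene. It read 12.99, 16.6 and 12.8 in double knockout uteri, 7.57, 7.60 and 6.53 in Mig-6 d/d uteri and 8.11, 5.62 and 5.07 in control uteri. The double knockout arrays lay above the other 6, with a log2 fold change of 1.19 ± 0.18 against control and 0.96 ± 0.18 against Mig-6 d/d. This was the weakest of the calls in the first stretch. The call against control was lost, at log2 fold changes of 1.06 to 1.26, when control replicate 2, control replicate 3 or any array of the double knockout was left out, and against Mig-6 d/d it was lost without double knockout replicate 2 (0.84).

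Zfp429, the near copy of Rsl1 at its promoter, read 16.1, 16.4 and 21.6 at 1439475_at in double knockout uteri, 6.20, 4.57 and 4.62 in Mig-6 d/d uteri and 6.80, 4.78 and 4.65 in control uteri. Replicate 3 of the double knockout was the highest, and its lowest array was still more than 2-fold above the highest of the other groups. The log2 fold change was 1.74 ± 0.18 against control and 1.81 ± 0.18 against Mig-6 d/d. Zfp874a at 1434171_at read 11.4, 13.9 and 9.12 in double knockout uteri, 3.08, 3.50 and 3.29 in Mig-6 d/d uteri and 3.99, 3.91 and 3.45 in control uteri. Here too the double knockout arrays lay apart, while the other 6 arrays were near the floor. The log2 difference between intensities was 1.58 ± 0.15 against control and 1.78 ± 0.15 against Mig-6 d/d. The rule left out 1445726_at, which names Rsl1, Zfp429, Zfp456 and Zfp953 together. It read 4.04, 4.31 and 4.51 in double knockout uteri, 4.64, 5.31 and 4.29 in Mig-6 d/d uteri and 4.88, 4.36 and 4.36 in control uteri, so the groups overlapped (log2 fold change against control -0.08, adjusted p = 0.931).

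On chromosome 17, Zfp994 at 1444589_at read 21.5, 23.6 and 21.6 in double knockout uteri, 8.40, 9.93 and 6.36 in Mig-6 d/d uteri and 6.77, 6.88 and 6.83 in control uteri. Its double knockout arrays were again more than 2-fold above the highest other array. The log2 fold change was 1.70 ± 0.14 against control and 1.46 ± 0.14 against Mig-6 d/d. Zfp40 had 4 probe sets, of which 1440695_at read 15.8, 20.4 and 14.3 in double knockout uteri, 7.28, 6.67 and 7.15 in Mig-6 d/d uteri and 6.67, 7.52 and 7.99 in control uteri. This probe set was called in both comparisons, with log2 fold changes of 1.17 ± 0.14 against control and 1.24 ± 0.14 against Mig-6 d/d. At 1435984_at the double knockout read 6.68, 10.02 and 10.2, against 4.38, 4.54 and 4.74 in Mig-6 d/d and 5.56, 5.95 and 5.38 in control uteri. It was called against Mig-6 d/d (0.95 ± 0.15) but not against control (0.65 ± 0.15), where it was called once replicate 1 of the double knockout, its lowest array, was left out (0.84). The remaining probe sets of Zfp40, 1421251_at and 1441613_at, differed by 0.21 and 0.26 against control and were called in neither comparison.

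Zfp945 had a probe set called higher and another called lower in both comparisons. At 1437128_a_at it read 28.1, 29.9 and 25.6 in double knockout uteri, 6.05, 9.67 and 7.19 in Mig-6 d/d uteri and 7.25, 9.01 and 9.04 in control uteri, log2 fold changes of 1.73 ± 0.17 against control and 1.89 ± 0.17 against Mig-6 d/d. At 1437127_at it read 17.5, 17.2 and 17.1 in double knockout uteri, 30.5, 28.5 and 31.4 in Mig-6 d/d uteri and 33.0, 25.5 and 37.9 in control uteri, log2 fold changes of -0.88 ± 0.13 against control and -0.80 ± 0.13 against Mig-6 d/d. The double knockout arrays thus lay above all others at the first of these and below all others at the second, while 1441792_at differed by -0.24 ± 0.10 and -0.26 ± 0.10 and was not called. The ending _a_at marks probes that match several transcripts of the gene, and which transcripts these probe sets read is not given in the files used here. The lower call against control was lost when control replicate 1, control replicate 3, Mig-6 d/d replicate 1 or any array of the double knockout was left out, at log2 fold changes of -0.89 to -0.75.

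Mig-6 d/d set against control was not used to choose the genes, but it shares its arrays with both that were. Of the 18 probe sets 0 were called in limma, beside 2.81% of all probe sets (1.71% higher and 1.09% lower). An unadjusted p under 0.05 was found for 1 of them, D13Ertd608e, at 0.29 ± 0.12 on the log2 scale (adjusted p = 0.237). Over all 45037 probe sets it was found for 8152. No difference among the 18 reached 1.5-fold, so neither limma nor an unpaired t-test, run beside it, could call any at that limit. Log2 fold changes ran between -0.31 for Zfp40 at 1435984_at and 0.29 for D13Ertd608e, with a median of -0.07. Arrays of the groups did not overlap at 3 of the 18, 1 higher and 2 lower, beside 21% of all probe sets (9.45% higher and 11.5% lower). Each 95% interval lay between -0.64 and 0.62.

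**Figure D2:**
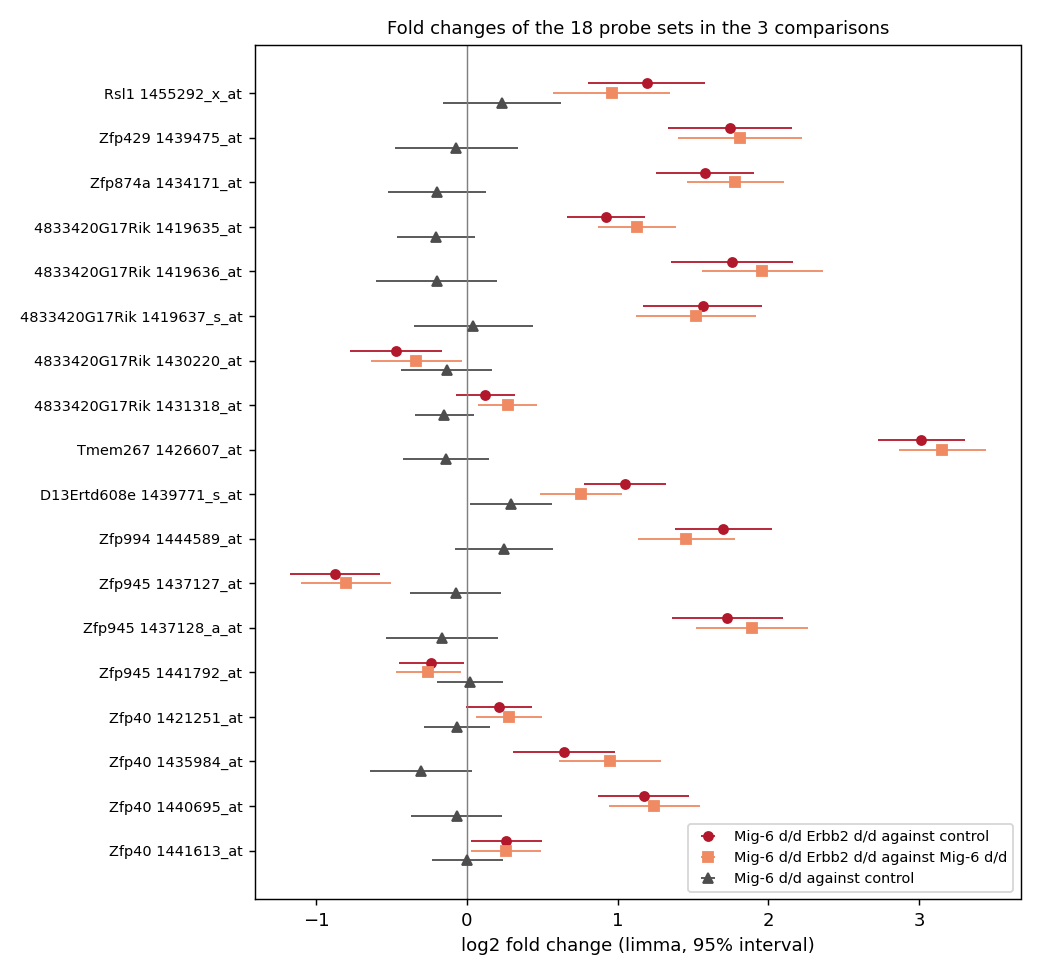
Log2 fold change with its 95% interval from limma for each of the 18 probe sets, circles for the double knockout against control, squares for the same arrays against Mig-6 d/d and triangles for Mig-6 d/d against control. The triangles lie between -0.31 and 0.29, and Tmem267 stands farthest right at 3.02 and 3.16.

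Genes beside the 9 were read to describe the rest of each stretch. Genes seen to differ had already been taken out as the 9. Low counts of calls among the neighbours therefore follow in part from that choice. Within 1 Mb of a start of the 9 genes, 88 other genes were measured with 144 probe sets. Against control 0 of these were called higher and 3 lower in double knockout uteri (0.198% and 0.16% of all probe sets), and against Mig-6 d/d 6 were called higher and 13 lower (2.38% and 2.75%). Their median log2 fold change was 0.00 in both comparisons. Double knockout arrays did not overlap control arrays at 18 of the 144 higher and 13 lower, where the shares of all probe sets were 5.9% and 5.82%. Against Mig-6 d/d these were 21 and 27, where the shares were 14.8% and 12%. An unadjusted p under 0.05 was found for 27 of the 144 against control and 43 against Mig-6 d/d. In the first stretch of chromosome 13, 0 of 40 probe sets of 26 neighbouring genes were called in limma in either comparison. Over all probe sets 0.357% were called against control and 5.13% against Mig-6 d/d. An unadjusted p under 0.05 was found for 8 of the 40 against control and 9 against Mig-6 d/d. Over all 45037 probe sets it was found for 3437 and 9090. The t-test, unadjusted, called 0 and 1 of the 40. Zfp458 at 1445824_at differed most of these, at 3.72, 6.39 and 4.16 in double knockout uteri, 9.76, 11.8 and 8.24 in Mig-6 d/d uteri and 12.1, 6.0 and 12.1 in control uteri. Its double knockout arrays lay below the Mig-6 d/d arrays and overlapped the control arrays, and it was not called (log2 fold change -1.05, adjusted p = 0.279 against control, and -1.09, adjusted p = 0.0515 against Mig-6 d/d). Zfp748 at 1456324_at followed with 0.04 and -0.57.

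In the second stretch the neighbour with the largest difference was Paip1, which encodes a protein that binds the poly(A)-binding protein and promotes translation, and which stands directly before 4833420G17Rik. Probe set 1441955_s_at of Paip1 has the ending _s_at as well, for probes that match more than 1 transcript. There Paip1 read 8.43, 8.42 and 9.11 in double knockout uteri, 67.3, 68.8 and 61.9 in Mig-6 d/d uteri and 77.9, 50.9 and 49.9 in control uteri. At 1425521_at it read 16.4, 18.6 and 17.5 in double knockout uteri, 112, 122 and 108 in Mig-6 d/d uteri and 135, 68.3 and 95.9 in control uteri. At both probe sets the double knockout arrays lay far below all others, beside 4833420G17Rik and Tmem267, which were higher. The log2 fold changes against control were -2.75 ± 0.16 (adjusted p = 5.33e-05) and -2.46 ± 0.20 (adjusted p = 0.000727), and those against Mig-6 d/d -2.93 (adjusted p = 2.46e-05) and -2.70 (adjusted p = 0.000212). The other probe sets of Paip1 were not called, with -0.24 at 1451740_at (adjusted p = 0.787) and 0.38 at 1456852_at (adjusted p = 0.445) against control. Nnt, the mitochondrial transhydrogenase gene before Paip1, was called higher against Mig-6 d/d at 1416105_at (293, 289 and 295 in double knockout uteri, against 175, 164 and 170 in Mig-6 d/d, log2 fold change 0.78, adjusted p = 0.00132). Its difference against control, where the arrays read 208, 212 and 220, was 0.45 and was not called (adjusted p = 0.0624). Ccl28, a chemokine of mucosal epithelium, and Hmgcs1, an enzyme of cholesterol synthesis, were called lower against Mig-6 d/d, with log2 fold changes of -1.91 and -2.39 at 2 probe sets and of -0.95, -1.04 and -1.17 at 3, and not against control. A further probe set of Hmgcs1, 1433444_at, was the largest not called (-1.10 against Mig-6 d/d), followed by Nnt at 1456573_x_at (0.58 against control).

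**Figure D3:**
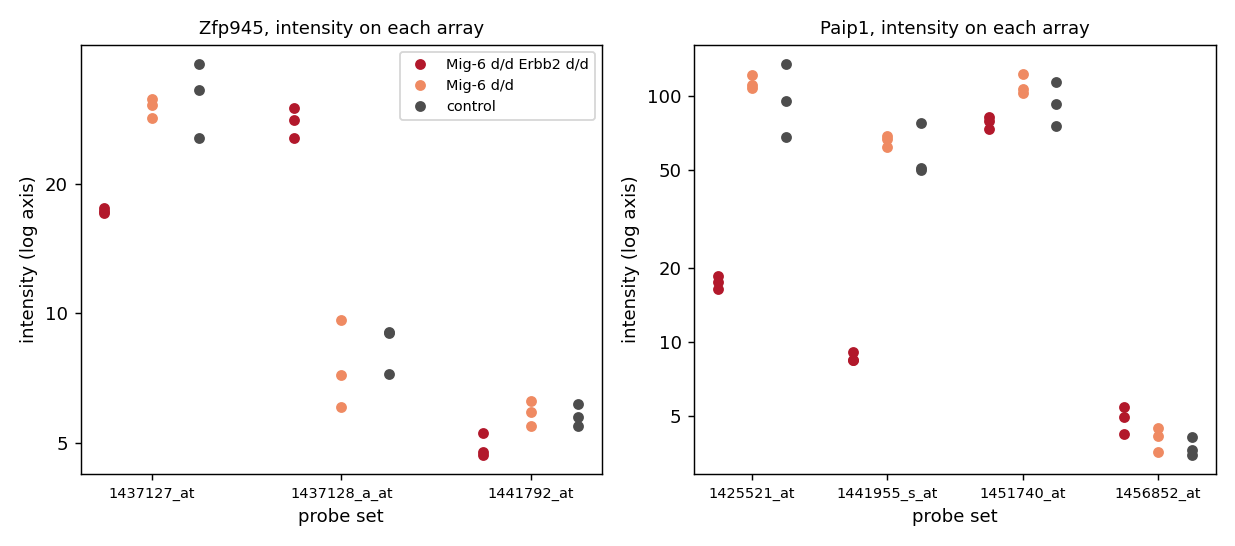
Intensity on a log axis of every probe set of Zfp945 on chromosome 17 (left) and of Paip1 on chromosome 13 (right), each point an array, with the double knockout, Mig-6 d/d and control from left to right at each probe set. Zfp945 is higher in the double knockout at 1437128_a_at and lower at 1437127_at, and Paip1 is far lower at 1425521_at and 1441955_s_at.

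On chromosome 17 the neighbour called in both comparisons was Pdpk1, a kinase that activates AKT, near the far end of the stretch. Its probe set 1416501_at was the only 1 of the 77 neighbouring probe sets of the stretch called against control. It read 42.4, 31.4 and 42.8 in double knockout uteri, 64.8, 64.2 and 57.3 in Mig-6 d/d uteri and 71.4, 70.4 and 70.4 in control uteri. All double knockout arrays were below the other 6 (log2 fold change -0.88 against control, adjusted p = 0.0185, and -0.69 against Mig-6 d/d, adjusted p = 0.0129). The call against control was lost when any control array was left out (-0.88 to -0.87), and that against Mig-6 d/d without replicate 2 of the double knockout (-0.54) or replicate 1 of Mig-6 d/d (-0.66). Against Mig-6 d/d, the zinc finger genes Zfp942, Zfp944 and Zfp758 were called higher (0.65, 0.73 and 0.65) and Zfp53 and Zfp54 lower (-0.95 and -1.05). Prss22, an epithelial serine protease, was called lower (-2.84), as were both probe sets of Tnfrsf12a, a receptor of the TNF family (-0.96 and -1.11), and Flywch1 and Amdhd2 were called higher (0.59 and 0.69). Of those not called, Zfp52 at 1426471_at differed most (0.98 against control, adjusted p = 0.0976), and Zfp51 at 1424706_at came next (-0.81 against Mig-6 d/d). With all stretches together, 0 of 59 probe sets of 36 neighbouring zinc finger genes were called in limma against control. Over all probe sets 0.357% were called, a share too low for 0 among 59 to set these genes apart. Of the 59, 13 had an unadjusted p under 0.05, beside 3437 of all 45037 probe sets. The t-test, unadjusted, called 3 of the 59. Among genes named Zfp anywhere in the genome other than those chosen, 1 of 612 probe sets was called higher and 1 lower against control, and 9 and 10 against Mig-6 d/d. These shares of 0.327% and 3.1% stood beside 0.357% and 5.13% of all probe sets. Here too the chosen genes had been left out because they differed.

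**Figure D4:**
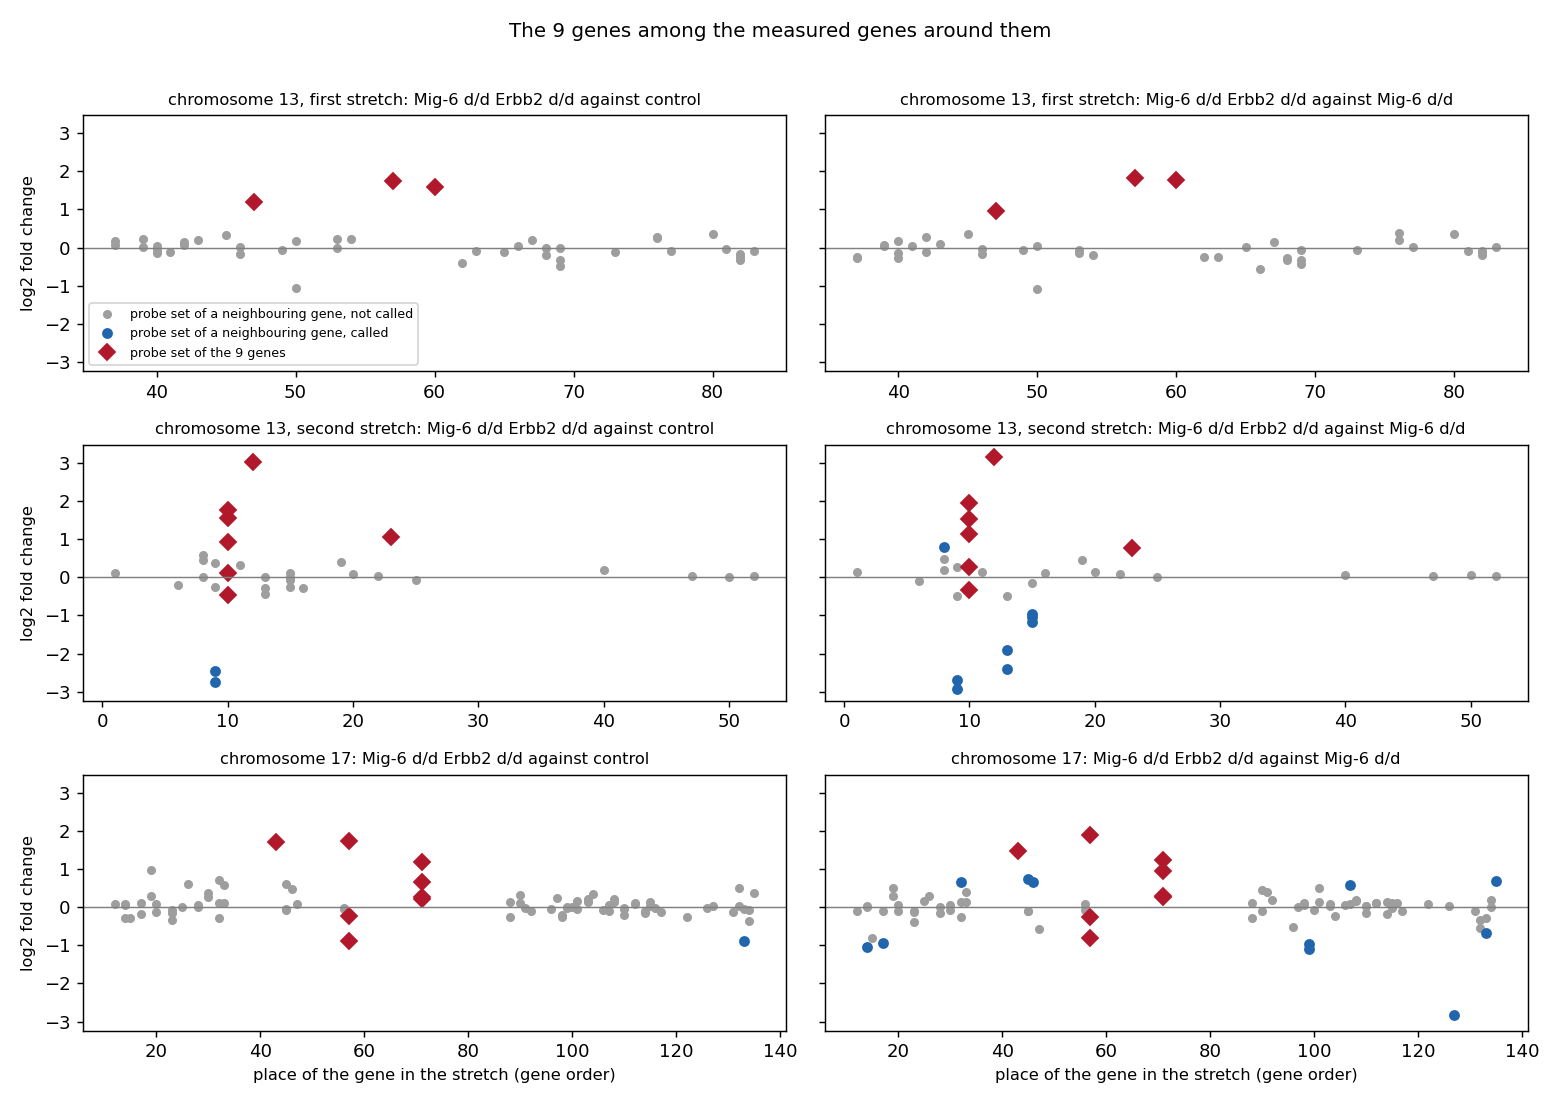
Log2 fold change of each probe set in the 3 stretches, by the place of its gene in gene order, with the double knockout set against control on the left and against Mig-6 d/d on the right. Diamonds are the 9 genes, blue points are called neighbours and grey points neighbours not called, and the 40 neighbouring probe sets of the first stretch are all grey while Paip1 stands below -2 in the second.

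Of the calls of the 9 genes, 10 of 12 against control and 12 of 13 against Mig-6 d/d were kept whichever single array was left out, and of the neighbours' calls 2 of 3 and 9 of 19. The count of neighbours called against Mig-6 d/d depended on single arrays, with 11 without replicate 2 and 12 without replicate 1 of the double knockout, and 11 without replicate 1 of Mig-6 d/d, in place of 19. Cell type markers were each read only at the brightest probe set, the one with the highest mean log2 intensity. They moved in that comparison too, where 2.38% of all probe sets were called higher and 2.75% lower. Of 8 epithelial markers 7 were called lower, most of all Krt7 (-2.82), Krt19 (-2.39), Epcam (-2.15) and Cldn7 (-2.03), and their summed intensity was 1865 to 3059 in double knockout uteri, 6436 to 10781 in Mig-6 d/d uteri and 2190 to 4786 in control uteri. All 4 endothelial markers (375 to 490 in double knockout uteri, against 234 to 295 in Mig-6 d/d), 2 of 5 smooth muscle markers (13040 to 15837 in double knockout uteri, against 7638 to 10546 in Mig-6 d/d) and 1 of 6 stromal markers (17968 to 18644 in double knockout uteri, against 13827 to 15605 in Mig-6 d/d) were called higher. In whole uteri fewer cells of a type and less RNA per cell cannot be told apart, and the part of this shift in the values against Mig-6 d/d was not tested. Against control 0.357% of all probe sets were called in limma, and 3437 of 45037 had an unadjusted p under 0.05. Of 41 markers of the 8 lists 0 were called in limma against control (3 at an unadjusted p under 0.05, and 1 by the t-test, unadjusted). The one called by that t-test was Ovgp1, a glycoprotein of the oviduct, at 64.4, 70.1 and 52.4 in double knockout uteri, 27.3, 69.9 and 11.6 in Mig-6 d/d uteri and 31.3, 21.8 and 7.42 in control uteri. Its double knockout arrays lay above the control arrays and overlapped the Mig-6 d/d arrays, with log2 fold changes of 1.85 ± 0.62 (adjusted p = 0.442) and 1.14 ± 0.62 (adjusted p = 0.359). The 3 ovary and oviduct markers measured summed to 78.4 to 96.7 in double knockout uteri, 37.0 to 93.3 in Mig-6 d/d uteri and 33.4 to 55.1 in control uteri, and their part in the values of the 9 genes was not tested. Of the 3 ovary and oviduct markers and of 5 leukocyte markers 0 were called against Mig-6 d/d, with 0 and 1 at an unadjusted p under 0.05 and 0 by the t-test. Markers of the embryo summed to 16.6 to 17.5 in double knockout uteri, 16.9 to 17.6 in Mig-6 d/d uteri and 15.3 to 17.4 in control uteri over 4 genes, close to the floor, while the 6 uterine markers summed to 3767 to 4134 in double knockout uteri, 3337 to 4046 in Mig-6 d/d uteri and 4374 to 5066 in control uteri.

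Partners through which KRAB zinc finger proteins silence genes were measured next, 18 of 18 listed, each at its brightest probe set only. Against control 0 of them were called in limma in double knockout uteri, at an unadjusted p under 0.05 or by the t-test either, with a median log2 fold change of -0.05. Over all probe sets 0.357% were called, so 0 calls among 18 do not set these genes apart. An unadjusted p under 0.05 was found for 3437 of all 45037. Trim28, the protein that the KRAB domain binds, averaged 638 in double knockout uteri, 597 in Mig-6 d/d and 652 in control uteri (log2 fold change against control -0.03, adjusted p = 0.971). Setdb1, the histone methyltransferase of the complex, averaged 89.6 in double knockout uteri, 78.6 in Mig-6 d/d and 85.5 in control uteri. Against Mig-6 d/d 2 of the 18 were called lower and 0 higher, beside 2.75% and 2.38% of all probe sets. They were Uhrf1, which guides maintenance of DNA methylation (-0.93, adjusted p = 0.0168), and Morc3, a chromatin ATPase (-0.60, adjusted p = 0.0479). Of 6 genes listed as sex-limited targets of the Rsl genes in mouse liver, 2 were measured, again at the brightest probe set only. Cyp2d9 averaged 4.77 in double knockout uteri, 4.33 in Mig-6 d/d and 4.33 in control uteri, and Mup3 averaged 3.73 in double knockout uteri, 3.76 in Mig-6 d/d and 3.34 in control uteri, all near the floor and not called in any comparison.

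The double knockout was called in the same direction against both other groups for 96 named genes. Without the 9 chosen genes these were 87 of 18020 measured genes with a known chromosome (0.483%). Of them 7 lay on chromosome 13, 1.01% of its 696 other measured genes, and 7 on chromosome 17, 0.842% of 831. The share of chromosome 13 was the highest of all chromosomes. Chromosome 3 held 9 (0.986% of 913), chromosome 7 held 13 (0.92% of 1413) and chromosome 8 held 8 (0.858% of 932). The other chromosomes with such genes had lower shares, from 0.0946% on chromosome 1 to 0.655% on chromosome 18. Whether the shares of chromosomes 13 and 17 stand apart was not tested.

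Genes elsewhere whose pattern over the 9 arrays was most like that of the 9 were found by correlation with a mean profile. This is a description over arrays that fall in 3 groups. For the profile each of the 9 genes entered only at its brightest probe set, scaled to a common mean and spread. The sign of 1 gene, Zfp945, was turned before averaging, because double knockout arrays lay lowest at its brightest probe set, 1437127_at. Its probe set 1437128_a_at, which was called higher, did not enter the profile. Among 18184 genes the likest was Mid1, a ubiquitin ligase of microtubules on chromosome X (r = 0.987), which read 370, 320 and 478 in double knockout uteri, 8.90, 19.3 and 9.35 in Mig-6 d/d uteri and 8.04, 8.62 and 8.36 in control uteri. Trim34a of the Trim cluster of chromosome 7 (r = 0.984) read 20.4, 27.9 and 32.4 in double knockout uteri, 5.59, 5.68 and 6.29 in Mig-6 d/d uteri and 6.50, 5.72 and 5.95 in control uteri. In both genes the double knockout arrays lay far above the other 6. Fut10 on chromosome 8 (0.982), Exoc2 on chromosome 13 (0.979) and Erdr1 on chromosome X (0.973) followed in the same direction. The opposite direction was shown by A930005H10Rik (-0.983), Adat2 (-0.978), Iqcc (-0.975), H2bc18 (-0.975) and Iqgap1 (-0.973). Erdr1 read 4188, 3653 and 4417 in double knockout uteri, 798, 723 and 700 in Mig-6 d/d uteri and 688, 856 and 989 in control uteri.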

How the data were processed

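The authors made 1 intensity per probe set and array by robust multi-array averaging (RMA, version not given) with quantile normalization, and deposited intensities on a linear scale; log2 values were computed here. Without scanner files, signal over background was not judged, and with 9 arrays their number sets the precision. Of 45037 probe sets 34945 had 1 gene symbol in the platform annotation, 932 had several and 9160 were unnamed here, and RefSeq (GRCm38.p6) changed 0 symbols. The 9 genes, the marker lists, the partner list and the neighbour window were chosen with earlier results of these data known.

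The 3 groups entered 1 model in limma 3.58.1 (lmFit and eBayes, R 4.3.3, statmod 1.5.0), with Benjamini-Hochberg adjustment over all probe sets, and the model was tested on simulated data. The study's methods give for the arrays a comparison of pairs of groups at 1.5-fold without naming its test; the unpaired t-test of their general statistics was run as an alternative. Other alternatives were quantile normalization again, median centring, a trended and robust variance, array weights, only the 6 arrays compared, leaving out each array or the dimmer probe sets, the replicate number as a block, other fold limits, and probe sets ending _x_at or _s_at left out.

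Named were the 9 genes; neighbours called in a comparison of the double knockout and the 2 largest per stretch not called; called genes of the lists; the 10 likest genes; and the targeted genes. Trim28, Setdb1, Cyp2d9, Mup3 and Ovgp1 were named after their values were seen. Promoters were aligned with Biopython 1.88 (Python 3.11.15, pandas 2.3.3), and figures drawn with matplotlib 3.10.9.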

Additional observations from a re-analysis of the deposited data

How the results depend on the processing

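Counts of called probe sets moved most with the test. With the unpaired t-test after Benjamini-Hochberg adjustment, 0 of the 18 probe sets were called against control and 2 against Mig-6 d/d, in place of 12 and 13, and of the neighbours 0 and 3, in place of 3 and 19. With its unadjusted p, 13 and 13 of the 18 and 6 and 22 neighbours were called. A 2-fold limit left 9 neighbours called against Mig-6 d/d. With 1 array left out, 10 to 12 of the 18 were called against control, 12 to 13 against Mig-6 d/d and 0 between Mig-6 d/d and control, and 2 to 4 and 11 to 22 neighbours. With only the 6 arrays compared, Rsl1 (adjusted p = 0.0797) and Zfp945 at 1437127_at (adjusted p = 0.0985) were not called against control. Of the probe sets of the 9 genes 10 passed the filter on dim probe sets. No called value of the 9 genes or their neighbours changed its sign under the alternatives run.

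Whether replicate numbers pair the samples is not given. Correlations of the deviations of same-numbered arrays ran between -0.133 and 0.203 and were not set against those of differently numbered arrays, so they cannot decide it. With the replicate number as a block, 12, 13 and 0 of the 18 and 3 and 20 neighbours were called.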
